A study of Homo sapiens with 6 samples.

Results

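Integrin, collagen and laminin genes encode the receptors that hold a cell to the extracellular matrix and the main chains of that matrix. Members were picked out by gene symbol (ITGA and ITGB genes, numbered collagen chains, and LAMA, LAMB and LAMC genes), which gave 87 of the 23354 genes in the deposited read-count table. The set itself was chosen with earlier results of these data known. The 87 were 26 integrin subunits, 44 collagen chains, 12 laminin chains and 5 genes that carry an integrin name but encode no subunit. All libraries came from LNCaP, an established human prostate cancer line with epithelial, androgen-responsive cells, grown in DMEM with fetal bovine serum. In the DHT group (3 libraries) the cells received 1 nM dihydrotestosterone, a potent androgen, for 48 h. In the DHT+WBM group (3 libraries) they received the same DHT together with white button mushroom (WBM) extract at 3 µL/mL for 48 h. Both groups therefore carry androgen, no androgen-free library was analysed here, and the labels name no vehicle for the cells without extract.

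Integrins are heterodimers of 1 alpha and 1 beta subunit: the alpha subunit largely sets the ligand, and the beta subunit connects the dimer to the actin cytoskeleton. Laminins are cross-shaped trimers of 1 alpha, 1 beta and 1 gamma chain and form basement membranes together with network-forming collagen IV. In the normal prostate, basal cells sit on the basement membrane with luminal cells above them, and loss of particular laminin and integrin subunits in prostate carcinoma is widely described.

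The libraries held 19127357 to 21490953 counts each, and 13466 genes passed the low-count filter and were tested with edgeR. Over all tested genes 58.2% were called at an adjusted p under 0.05, 29.2% higher and 29.0% lower in DHT+WBM, and 62.2% had groups that did not overlap. Nothing in the labels ties the 3 libraries of a group to separate cultures, so the p-values describe the spread among these libraries, possibly a technical one. All 8 luminal prostate markers were measured, among them KLK3, and together they summed to 5167 to 5373 CPM in DHT and 3309 to 3386 CPM in DHT+WBM, whereas each of the 4 basal markers had at most 12 counts over the 6 libraries and KRT5 had 0. Of the fibroblast and smooth muscle markers, DCN had 5, LUM 14, PDGFRA 10 and THY1 3 counts. PDGFRB and ACTA2 had more, 218 and 223 counts, with means of 1.87 and 1.96 CPM in DHT. The 6 markers together summed to 3.66 to 4.68 CPM in DHT and 3.44 to 3.82 CPM in DHT+WBM. CPM are counts scaled to library size with TMM factors. DHT replicate 1 ran high for laminins: it was the highest DHT library for 7 of 8 tested laminin chains, against 30.4% of all tested genes. This was not particular to laminins. The same library was the highest of DHT for 58.8% of tested integrin subunits, 39.1% of tested collagens and 37.7% of tested genes longer than 5 kb.

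The expressed set was narrow. Of the 87 genes, 50 were tested and 37 were not, and the untested ones had between 0 and 49 counts in total. Per kilobase of gene length, the scale used here to order genes by level, ITGB1, the beta subunit shared by the largest number of integrins, was the most abundant member at 136 ± 4.78 CPM per kb in DHT and 130 ± 3.56 in DHT+WBM (SD, n = 3). LAMC1, the gamma chain of most laminins, followed at 74.7 ± 4.72 and 69.5 ± 2.65 CPM per kb, and ITGAV, the alpha subunit of vitronectin and fibronectin receptors, at 58.7 ± 2.61 and 62.5 ± 3.02. The neighbouring ranks of LAMC1 and ITGAV lay further apart than their SDs in DHT. Behind them came LAMB2 at 25.0 ± 2.34, COL4A5 at 20.3 ± 1.28, COL6A1 at 19.7 ± 1.21 and ITGB5 at 19.3 ± 0.84 CPM per kb in DHT, of which the last 3 did not differ beyond their SDs. Levels over 10 CPM per kb, averaged over both groups, were reached by 5 integrin subunits, 2 collagens and 2 laminins, and over 1 CPM per kb by 8, 8 and 7.

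**Figure D1:**
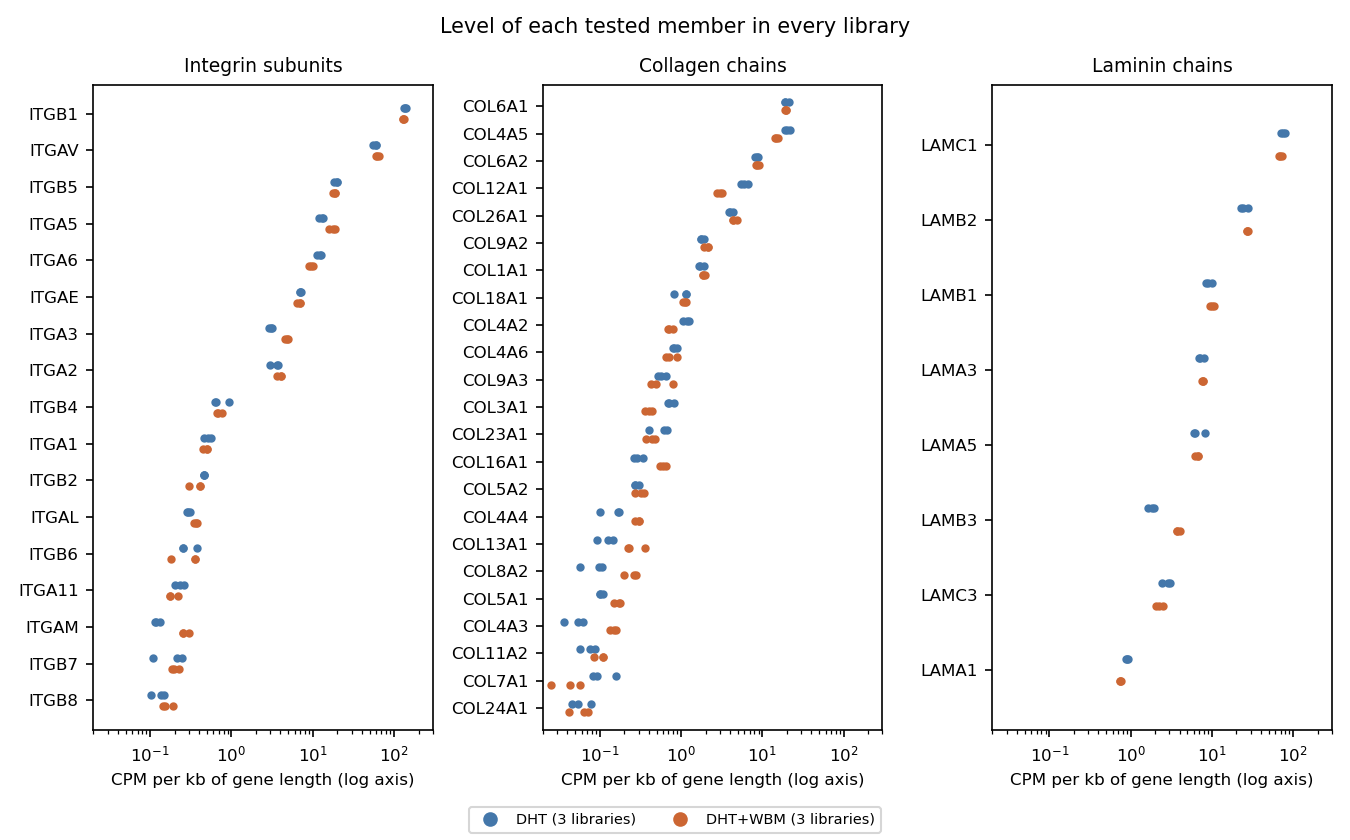
Level of each tested integrin subunit, collagen chain and laminin chain, as CPM per kb of gene length on a log axis, with 1 point per library (DHT blue, DHT+WBM orange, 3 libraries each). ITGB1, ITGAV and LAMC1 stand above the other members, and most collagens lie below 1 CPM per kb.

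Several protein complexes had some chains and lacked others. Collagen I is built from the products of COL1A1 and COL1A2: COL1A1 was at 10.5 ± 0.81 CPM in DHT, whereas COL1A2 had 0 counts in all 6 libraries, which allows up to 3 counts, or 0.0244 CPM over the 6 libraries (counting error only). Of the collagen VI chains, COL6A1 and COL6A2 were at 83.6 ± 5.13 and 36.7 ± 1.44 CPM in DHT, while COL6A3 had 14 counts, COL6A5 1 and COL6A6 5. Of the laminin-332 chains, which anchor epithelia to the basement membrane, LAMA3 was at 79.5 ± 5.97 and LAMB3 at 8.45 ± 0.71 CPM in DHT. For laminin-521, a widespread basement membrane laminin, LAMA5, LAMB2 and LAMC1 were all measured, at 77.3 ± 14.0, 144 ± 13.5 and 694 ± 43.8 CPM in DHT. ITGB4, which pairs only with ITGA6, was at 4.83 ± 1.11 CPM in DHT.

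The untested genes fell in every class. The 9 untested integrin subunits were ITGA2B and ITGB3, which form the platelet fibrinogen receptor, ITGAD and ITGAX of leukocytes, and ITGA4, ITGA7, ITGA8, ITGA9 and ITGA10. The 21 untested collagens had at most 35 counts each: COL1A2, COL2A1, COL5A3, COL11A1 and COL27A1 among fibrillar chains, COL9A1, COL14A1, COL19A1, COL20A1, COL21A1 and COL22A1 among fibril-associated ones, COL4A1, COL6A3, COL6A5 and COL6A6 among network and bead-forming ones, and COL8A1, COL10A1, COL15A1, COL17A1, COL25A1 and COL28A1. COL19A1, like COL1A2, had 0 counts, which allows up to 3 counts over the 6 libraries. The untested laminins included LAMA2, LAMA4 and LAMB4.

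Receptor and matrix genes were set side by side by their counts, and the difference between the classes was not tested. By edgeR's quasi-likelihood test 13 of the 50 tested genes were higher and 10 lower in DHT+WBM, or 46% called beside 58.2% of all tested genes. Among integrin subunits 4 of 17 were higher and 1 lower, among collagens 6 of 23 were higher and 5 lower, and among laminins 3 of 8 were higher and 3 lower. Groups did not overlap for 21 of the 50 genes, beside 62.2% of all tested genes, and 9 were called, without overlap and at a mean of at least 5 CPM, beside 46.6%. The shares of called genes were 29.4% for integrins, 47.8% for collagens and 75% for laminins. The median log2 fold change (DHT+WBM over DHT) was 0.02 for integrin subunits and 0.06 for the 31 tested matrix chains, beside 0.00 for all tested genes. The median absolute log2 fold change was 0.18 for integrins, 0.44 for collagens, 0.14 for laminins and 0.21 for all tested genes. Changes of at least 2-fold were called for 1 integrin, 7 collagens and 1 laminin, and for 5.70% of all tested genes; 4 of the 7 collagens (COL4A3, COL8A2, COL13A1 and COL7A1) passed the low-count filter only through the group where they were high, so this tally is a description.

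**Figure D2:**
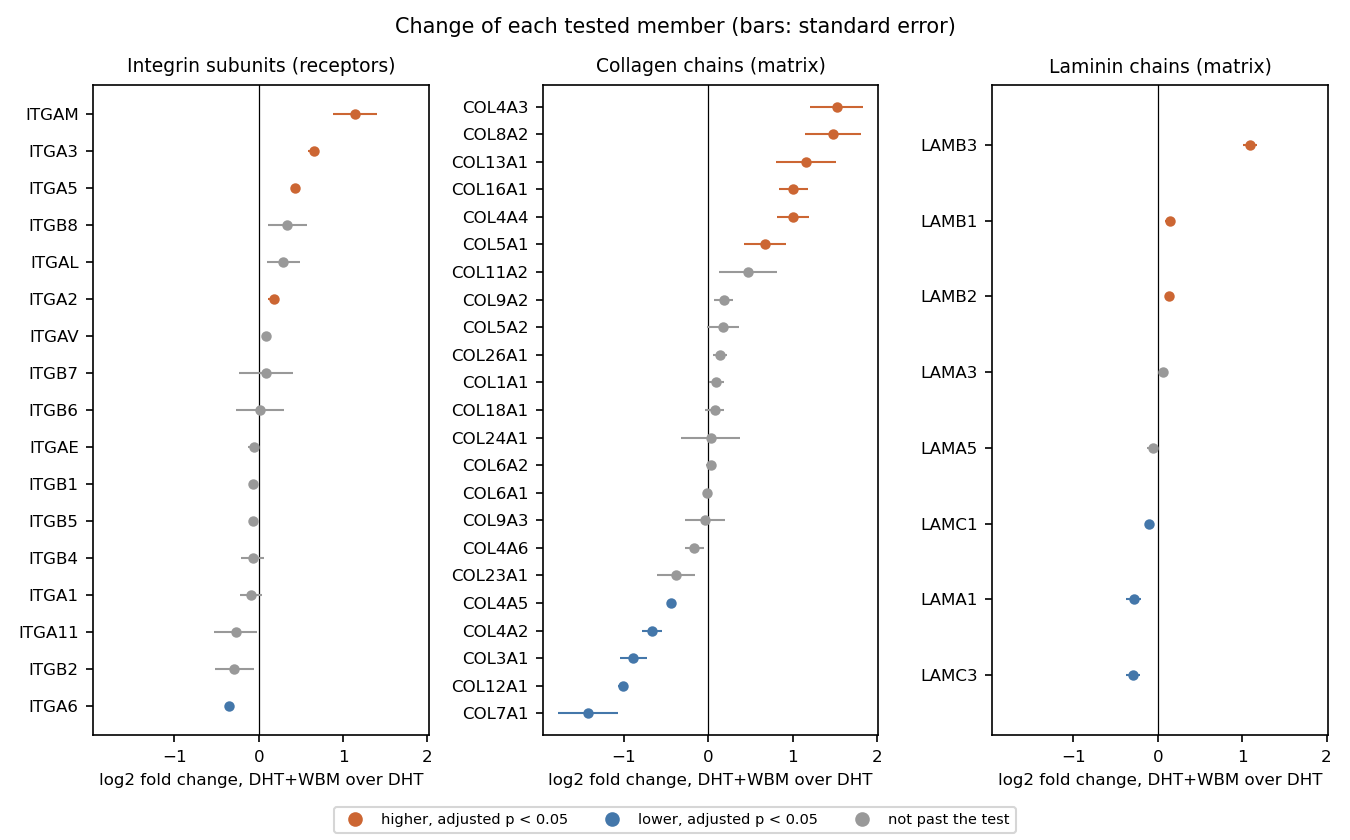
Log2 fold change of DHT+WBM over DHT with its standard error for each tested integrin subunit, collagen and laminin chain, coloured by the edgeR call at an adjusted p under 0.05. Integrin subunits run from -0.35 (ITGA6) to 1.14 (ITGAM), with the beta subunits within 0.34 of 0. Collagens run from -1.42 (COL7A1) to 1.52 (COL4A3), and both of these passed the low-count filter only through the group where they were high.

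Laminin-binding integrin subunits moved in opposite directions. ITGA3 (chromosome 17, 48133340 to 48167849, hg19), whose product pairs with the beta 1 subunit to bind laminins, was at 15.6, 14.5 and 15.5 CPM in DHT and at 22.8, 23.8 and 24.9 CPM in DHT+WBM. Every DHT+WBM library was above every DHT library, and the log2 fold change was 0.65 ± 0.07 (SE, edgeR adjusted p = 3.38e-10). Errors on CPM are SDs over 3 libraries and errors on log2 changes are standard errors throughout. ITGA6 (chromosome 2, 173292082 to 173371181), which pairs with the beta 1 or the beta 4 subunit, was at 75.9, 73.2 and 68.6 CPM in DHT and at 54.2, 57.1 and 59.8 CPM in DHT+WBM. Its groups did not overlap either, with the DHT+WBM libraries lower, at a log2 change of -0.35 ± 0.05 (edgeR adjusted p = 1.63e-07). Per kilobase, ITGA6 remained the more abundant of the pair, at 12.1 ± 0.61 against 3.04 ± 0.11 CPM per kb in DHT and 9.48 ± 0.47 against 4.77 ± 0.20 in DHT+WBM. The third laminin-binding subunit gene, ITGA7, had 49 counts and was not tested.

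Fibronectin and vitronectin receptor subunits were higher or did not pass the test. ITGA5 (chromosome 12, 54789045 to 54813050), the alpha subunit of the classical fibronectin receptor, was at 56.1, 50.7 and 55.3 CPM in DHT and at 66.3, 78.3 and 74.9 CPM in DHT+WBM. The groups did not overlap, and the log2 fold change was 0.44 ± 0.05 (edgeR adjusted p = 7.53e-09). ITGAV (chromosome 2, 187454790 to 187545629) was at 429, 435 and 399.8 CPM in DHT and at 428, 471 and 446 CPM in DHT+WBM. Its groups overlapped, and its log2 fold change of 0.09 ± 0.04 missed the threshold (edgeR adjusted p = 0.0535). That call depended on the setting: ITGAV passed under library totals only, at 0.14 (edgeR adjusted p = 0.00331), and in 6 other alternatives.

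Among the tested collagen-binding and leukocyte alpha subunits, ITGA2 and ITGAM passed the test. ITGA2, the collagen-receptor subunit also found on platelets, went from 27.2 ± 3.07 to 30.7 ± 1.66 CPM, with overlapping groups and a log2 change of 0.18 ± 0.07 (edgeR adjusted p = 0.0245). Its call was lost without DHT replicate 3, at 0.08 (edgeR adjusted p = 0.286), without either DHT+WBM replicate 2 or 3, and in DESeq2. ITGA1 and ITGA11, also collagen-binding, had log2 fold changes of -0.09 and -0.27 and did not pass, and the same-strand gene PELO lies within ITGA1, so the assignment of reads between them is uncertain. ITGAM, the alpha subunit of the complement receptor of myeloid cells, went from 0.64 ± 0.04 up to 1.41 ± 0.13 CPM, or 1.14 ± 0.27 on the log2 scale (edgeR adjusted p = 0.000369). Beside it, the leukocyte markers PTPRC, CD3E and CD14 had 3 counts each over the 6 libraries, and the 5 leukocyte markers summed to 2.05 to 2.34 CPM in DHT and 2.46 to 3.56 CPM in DHT+WBM, nearly all of it LYZ, which was higher (2.10 ± 0.15 and 2.86 ± 0.56 CPM, edgeR adjusted p = 0.0302). The part of other cells in the ITGAM rise was not tested. ITGAL and ITGAE did not pass, at 0.29 and -0.06, although the ITGAL groups did not overlap, and GSG2 overlaps ITGAE on the opposite strand.

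None of the 7 tested beta subunits passed edgeR's test in the comparison with all 6 libraries. ITGB1 (chromosome 10, 33189246 to 33247293) was at 571, 558 and 533 CPM in DHT and at 517, 523 and 544 CPM in DHT+WBM, overlapping groups with a log2 change of -0.07 ± 0.04 (edgeR adjusted p = 0.114). It was called lower without DHT replicate 3, at -0.10 (edgeR adjusted p = 0.0346). ITGB5, the beta subunit of a vitronectin receptor with ITGAV, was at 64.9 ± 2.81 and 61.8 ± 1.52 CPM, a log2 fold change of -0.07 ± 0.05. The other beta subunits were below 5 CPM: ITGB8 had the highest log2 fold change, 0.34 ± 0.23, and ITGB2, the leukocyte beta subunit, the lowest, -0.29 ± 0.23, with groups that did not overlap. The antisense gene ITGB2-AS1 overlaps ITGB2 over 7804 bases. At those levels the standard errors of ITGB2, ITGB6, ITGB7 and ITGB8 were 0.23 to 0.32. The changes of ITGB8 and ITGB2 were larger than their standard errors and still did not pass. Differences of that size could therefore be missed at this depth.

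Among the laminins, LAMB3 stood out by size. LAMB3 (chromosome 1, 209788218 to 209825820), the beta chain of laminin-332, was at 8.54, 7.70 and 9.11 CPM in DHT and at 19.2, 17.3 and 17.6 CPM in DHT+WBM. The groups were far apart, with a 2.13-fold rise (log2 fold change 1.09 ± 0.08, edgeR adjusted p = 6.01e-14). Its trimer partner LAMA3 did not pass, at 79.5 ± 5.97 and 82.9 ± 1.79 CPM (log2 fold change 0.06 ± 0.05); it passed without DHT replicate 1, at 0.12 (edgeR adjusted p = 0.0346). LAMA1 (chromosome 18, 6941743 to 7117813), the alpha chain of the laminin of early embryonic basement membranes, was at 11.4, 10.6 and 10.9 CPM in DHT and at 8.96, 9.08 and 8.93 CPM in DHT+WBM. All 3 DHT+WBM libraries were lower, and the log2 fold change was -0.29 ± 0.09 (edgeR adjusted p = 0.00569).

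The remaining laminin calls were small and had overlapping groups. LAMB1 and LAMB2, the more widespread beta chains, had log2 fold changes of 0.14 ± 0.05 and 0.13 ± 0.05 (edgeR adjusted p = 0.0243 and 0.0175), and the gamma chains LAMC1 and LAMC3 had -0.11 ± 0.04 and -0.30 ± 0.09 (edgeR adjusted p = 0.0283 and 0.00323). LAMC1 was at 739, 652 and 691 CPM in DHT and at 640.2, 623 and 672 CPM in DHT+WBM. DHT replicate 1, which ran high for laminins, held the highest LAMC1 value, and without it the log2 fold change was -0.06 (edgeR adjusted p = 0.202). LAMC1 also lost its call without DHT+WBM replicate 1 or 2 (edgeR adjusted p = 0.0790 and 0.126), under upper-quartile factors and under library totals only. LAMB1 and LAMB2 lost theirs without DHT replicate 2, DHT replicate 3 or DHT+WBM replicate 3, so that the laminins called higher fell from 3 to 1 in each of these fits, and LAMB1 also lost its call in DESeq2 (adjusted p = 0.0707). LAMA5 did not pass, at 77.3 ± 14.0 and 74.3 ± 3.40 CPM, and LAMA2, LAMA4 and LAMB4 were not tested.

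**Figure D3:**
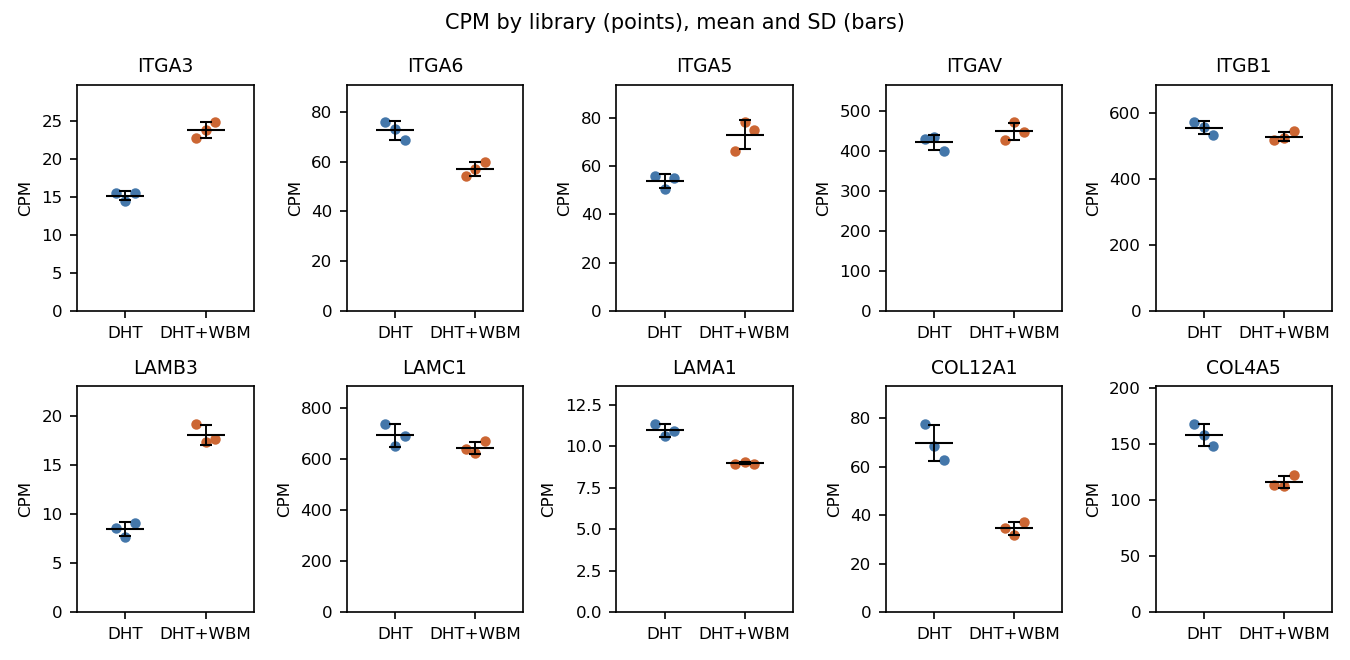
CPM in each library (points) with the group mean and SD (bars) for 10 members. The groups separate for ITGA3, ITGA5, ITGA6, LAMB3, LAMA1, COL12A1 and COL4A5, and overlap for ITGAV, ITGB1 and LAMC1.

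Collagen IV genes lie in 3 pairs arranged head to head, each pair reading outward from a shared stretch between the start sites, and this makes their levels worth comparing pair by pair. For the pairs, the sequence just upstream of 1 gene is shown from RefSeq (GRCh38.p14), 5′ to 3′ on that gene's strand, since the partner reads from the other strand of the same stretch. Promoter sequences were found for 62 of the 87 genes. Capitals mark matches on either strand to any of 5 motifs: the CCAAT box, the GC box with the letters GGGCGG, the AP-1 site with TGANTCA, the core of the NRF2 element with TGACNNNGC, and the core of the aryl hydrocarbon receptor element with GCGTG. The AP-1 and NRF2 strings share their first 3 letters and can overlap.
COL4A3, chr2:227164374-227164623, plus strand, 250 bases: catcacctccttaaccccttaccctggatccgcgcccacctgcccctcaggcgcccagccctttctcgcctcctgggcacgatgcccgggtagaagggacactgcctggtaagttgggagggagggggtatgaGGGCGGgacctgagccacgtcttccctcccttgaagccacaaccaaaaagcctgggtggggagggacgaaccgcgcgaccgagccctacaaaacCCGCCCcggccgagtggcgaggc
COL4A5, chrX:108439588-108439837, plus strand, 250 bases: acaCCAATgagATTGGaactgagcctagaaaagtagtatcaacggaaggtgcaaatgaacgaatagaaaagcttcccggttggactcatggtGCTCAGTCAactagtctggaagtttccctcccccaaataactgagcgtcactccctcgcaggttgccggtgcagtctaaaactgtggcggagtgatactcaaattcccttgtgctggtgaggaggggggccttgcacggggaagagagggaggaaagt
COL4A2, chr13:110307158-110307283, plus strand, the 126 bases between the COL4A1 and COL4A2 starts: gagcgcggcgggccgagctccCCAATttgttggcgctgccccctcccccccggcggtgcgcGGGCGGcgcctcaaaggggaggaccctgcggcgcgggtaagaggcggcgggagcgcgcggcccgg
The COL4A3 stretch held 2 GC boxes, the COL4A5 stretch 2 CCAAT boxes and 1 match to the NRF2 core, and the COL4A2 stretch 1 CCAAT box and 1 GC box. Over 35116 RefSeq promoters, a 250-base stretch before the start held the CCAAT box in 32%, the GC box in 42.6%, AP-1 in 6.57%, the NRF2 core in 10.9% and the aryl hydrocarbon receptor core in 32.2%. These shares are for 250 bases and do not apply to the shorter COL4A2 stretch. A match is a string of letters and says nothing about binding here.

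The 3 collagen IV pairs differed from each other. COL4A4 and COL4A3, whose start sites are 418 bases apart in that RefSeq annotation, encode minor chains known from kidney, lung and eye basement membranes, and both rose. COL4A3 had 9, 10 and 6 counts in DHT and 26, 21 and 26 in DHT+WBM, and COL4A4 had 22, 35 and 35 counts in DHT and 64, 54 and 68 in DHT+WBM. No DHT+WBM count fell within the DHT range for either gene, although both were rare: the log2 fold changes were 1.52 ± 0.31 for COL4A3 and 1.00 ± 0.19 for COL4A4 (edgeR adjusted p = 7.23e-05 and 2.76e-05). COL4A3 met the low-count filter in all 3 DHT+WBM libraries but in 1 DHT library, so it entered the test through the group where it was high. COL4A3 also overlaps LOC654841 on the opposite strand, over 93741 bases. LOC654841 was at a mean of 0.86 CPM over all libraries, beside 0.79 CPM for COL4A3, and had a log2 fold change of 0.59. The part of LOC654841 reads in the COL4A3 rise was not tested.

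COL4A5 (chromosome X, 107683074 to 107940775, hg19), the chain that joins either the alpha 3 and alpha 4 chains or the alpha 6 chain, stood level with COL6A1 per kilobase in DHT (20.3 ± 1.28 and 19.7 ± 1.21 CPM per kb) and below it in DHT+WBM (14.9 ± 0.70 and 19.5 ± 0.22). It was at 168, 158 and 148 CPM in DHT and at 113, 113 and 123 CPM in DHT+WBM, with no overlap and a log2 change of -0.44 ± 0.04 (edgeR adjusted p = 8.50e-11). Its neighbour COL4A6, 379 bases away between starts, was at 7.34 ± 0.44 and 6.56 ± 1.06 CPM, in overlapping groups, and differed by -0.17 ± 0.11 on the log2 scale (edgeR adjusted p = 0.203). Without DHT+WBM replicate 2, COL4A6 was called lower, at -0.30 (edgeR adjusted p = 0.0324), and ATG4A overlaps it on the opposite strand. Per kilobase, COL4A5 stood at 20.3 ± 1.28 and COL4A6 at 0.84 ± 0.05 CPM per kb in DHT, so the partners of this pair differed far more in level than in change.

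COL4A1 and COL4A2, which together form the main collagen IV of most tissues, were also unequal. COL4A2 (chromosome 13, 110959631 to 111165373) was at 7.40, 6.59 and 7.80 CPM in DHT and at 4.43, 4.31 and 4.97 CPM in DHT+WBM. Every DHT+WBM library was lower, with a log2 change of -0.67 ± 0.12 (edgeR adjusted p = 6.37e-06). COL4A1 had 2, 0 and 0 counts in DHT and 3, 3 and 2 in DHT+WBM, too few to test.

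**Figure D4:**
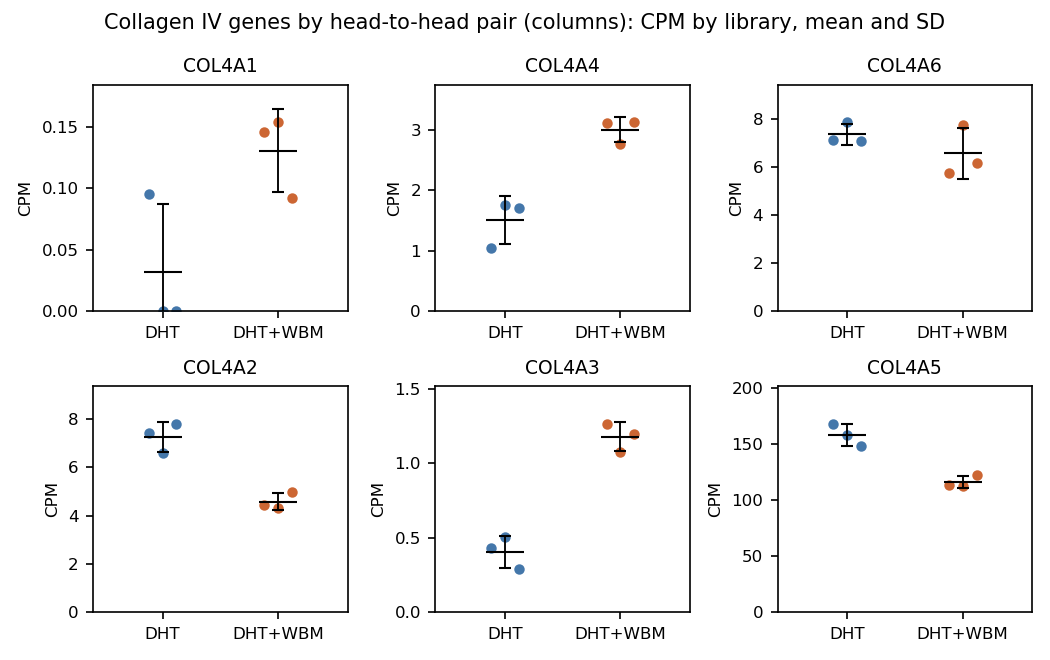
CPM in each library (points), mean and SD (bars) for the 6 collagen IV genes, with the 2 genes of a head-to-head pair above each other. COL4A3 and COL4A4 are higher in DHT+WBM, COL4A2 and COL4A5 are lower, COL4A6 overlaps, and COL4A1 rests on 10 counts in all.

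Fibril-forming and fibril-associated collagens moved in both directions. COL12A1 (chromosome 6, 75794042 to 75915623), a fibril-associated collagen that bridges collagen I fibrils, was at 77.8, 68.6 and 63.0 CPM in DHT and at 34.7, 31.9 and 37.3 CPM in DHT+WBM. The groups were widely separated, a 2.01-fold fall (log2 fold change -1.01 ± 0.06, edgeR adjusted p = 4.98e-17). COL3A1, a fibrillar collagen of soft tissues, fell from 3.87, 4.48 and 3.75 CPM in DHT to 2.19, 2.36 and 1.98 CPM in DHT+WBM (log2 fold change -0.89 ± 0.16, edgeR adjusted p = 7.87e-06). COL7A1, which forms the anchoring fibrils beneath epithelia, dropped to 0.38 ± 0.14 CPM from 1.01 ± 0.37 (log2 fold change -1.42 ± 0.36, edgeR adjusted p = 0.000804). Unlike COL12A1 and COL3A1, COL7A1 entered the test only through the group where it was high, so its value is a description. The fibroblast and smooth muscle markers, whose summed ranges in the groups overlapped, had 2 tested genes, ACTA2 and PDGFRB, at -0.25 and -0.17, neither past the test. Their part in these falls was not tested.

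The collagens that rose were all rare. COL16A1, a fibril-associated collagen, had the highest level of them per kilobase, 0.30 and 0.60 CPM per kb in the groups, and went from 1.76 ± 0.23 up to 3.55 ± 0.29 CPM (log2 fold change 1.01 ± 0.17, edgeR adjusted p = 3.79e-06). COL8A2, a short-chain network collagen, rose from 0.39 ± 0.12 to 1.09 ± 0.20 CPM, and COL13A1, a transmembrane collagen, from 0.38 ± 0.08 to 0.84 ± 0.24 CPM. COL5A1, a chain that regulates fibril diameter, rose from 0.88 ± 0.04 to 1.41 ± 0.12 CPM (edgeR adjusted p = 0.0182). LOC101448202, at a mean of 0.98 CPM over all libraries, overlaps COL5A1 on the opposite strand. The COL13A1 call was lost without DHT+WBM replicate 1, at 0.89 (edgeR adjusted p = 0.0668), and that of COL5A1 without DHT+WBM replicate 2 or 3 (edgeR adjusted p = 0.0597 and 0.0624) and in DESeq2. COL4A3, COL8A2 and COL13A1 met the low-count filter in all libraries of DHT+WBM but in 1 or 0 of DHT, and COL7A1 in all of DHT but 1 of DHT+WBM. Such genes entered the test through the group where they were high, so the count of 11 called collagens is a description of the tested set, not of all 44.

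Both tested collagen VI chains, which form beaded filaments, missed the threshold. COL6A1 was at 83.6 ± 5.13 and 82.8 ± 0.93 CPM and COL6A2 at 36.7 ± 1.44 and 37.4 ± 1.29 CPM, with log2 fold changes of -0.01 ± 0.05 and 0.03 ± 0.06. COL1A1 had 0.09 ± 0.09, COL26A1 0.14 ± 0.08, COL9A2 0.18 ± 0.11 and COL18A1, the source of endostatin, 0.07 ± 0.12. SLC19A1 overlaps COL18A1 on the opposite strand. The other tested collagens that missed it, COL5A2, COL9A3, COL11A2, COL23A1 and COL24A1, were all below 3 CPM, with standard errors of 0.19 to 0.35, and COL23A1 passed without DHT replicate 3, at -0.58 (edgeR adjusted p = 0.0327).

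Summed over all 44 genes, the collagens were at 443, 409 and 395 CPM in DHT and 338, 337 and 351 CPM in DHT+WBM, so the 3 DHT+WBM libraries were lower. The difference of -73.9 CPM between group means was made up by COL4A5, with -41.7 CPM, and COL12A1, with -35.2 CPM. The other 42 collagens together were at 188 ± 7.93 and 191 ± 1.11 CPM. Integrin subunits summed to 1255 ± 42.5 CPM in DHT and 1268 ± 37.9 in DHT+WBM, and laminins to 1092 ± 81.5 and 1067 ± 31.9, with overlapping groups for both. On this scale, which is not corrected for gene length, LAMC1 gave 62.0% of the laminin sum and ITGB1 42.9% of the integrin sum. In bulk RNA, fewer cells that express a gene and less RNA per cell cannot be told apart.

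**Figure D5:**
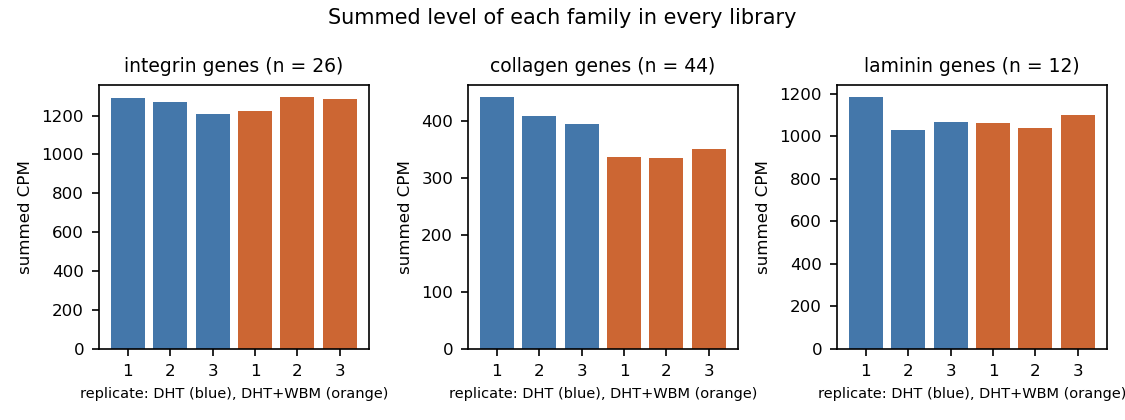
Summed CPM of the 26 integrin subunits, 44 collagens and 12 laminins in each of the 6 libraries (bars start at 0). For collagens every DHT+WBM library is below every DHT library, whereas integrins and laminins overlap.

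Of the 5 genes with an integrin name that encode no subunit, 2 were tested. ITGB3BP (chromosome 1, 63906441 to 63988944), known also as a centromere protein gene, was at 17.8, 19.4 and 18.1 CPM in DHT and at 15.4, 15.1 and 14.5 CPM in DHT+WBM. Its groups did not overlap, and the log2 fold change was -0.30 ± 0.07 (edgeR adjusted p = 0.000690). ITGB1BP1, whose product binds the tail of the beta 1 subunit, did not pass, at -0.07 ± 0.05, and ITGB1BP2, ITGBL1 and ITGB2-AS1 were too rare to test.

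Other genes of the adhesion pathway were taken from pathway lists and are given by counts, beside the 29.2% higher and 29.0% lower of all tested genes. Of 13 tested other matrix receptors, 8 were higher and 2 lower: SDC2 and SDC3, syndecan proteoglycans, rose by log2 fold changes of 0.58 ± 0.06 and 0.33 ± 0.04, and CD47, which associates with integrins, by 0.22 ± 0.04. The 2 lower ones were CD9 and CD151, at -0.13 and -0.15. Both are tetraspanin genes, but CD81, another tetraspanin gene of this list, was higher, at 0.15 ± 0.04. Of 15 other matrix ligands 5 were higher and 5 lower. THBS1, which encodes thrombospondin 1, fell from 723 ± 56.1 to 515 ± 16.6 CPM, the tenascin gene TNC from 6.52 ± 0.54 to 2.95 ± 0.38, and the fibrillin gene FBN1 from 18.4 ± 1.28 to 12.8 ± 1.11. FN1, the fibronectin gene, was among the higher ones, at 932 ± 29.5 against 763 ± 104 CPM.

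Of 31 tested adhesion plaque genes, which connect integrin tails to actin, 12 were higher and 6 lower. The 3 with the smallest adjusted p were lower: PARVA and LIMS1, whose products bind integrin-linked kinase, and FERMT1, a kindlin that activates integrins, had log2 fold changes of -0.53 ± 0.05, -0.54 ± 0.05 and -0.59 ± 0.06. ILK itself was at 94.1 and 94.2 CPM and did not pass. Of 23 collagen-processing genes 9 were higher and 6 lower. PPIB, a prolyl isomerase of the collagen hydroxylation complex, fell by 0.47 ± 0.04 on the log2 scale, while PLOD2, a lysyl hydroxylase, and P4HA1, a prolyl hydroxylase subunit, rose by 1.20 ± 0.11 and 0.40 ± 0.04. Among 15 tested matrix proteases and inhibitors 9 were higher and 2 lower. The inhibitor gene TIMP2 rose by 0.45 ± 0.04, the collagenase gene MMP13 by 0.89 ± 0.10 to 11.7 ± 1.39 CPM, and the membrane protease gene MMP16 fell by 0.35 ± 0.06. The median log2 fold changes of these 5 lists were 0.21, 0.02, 0.06, 0.09 and 0.22 in the order given, beside 0.00 for all tested genes.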

How the data were processed

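RNA sequencing was read from 1 deposited table with 6 libraries, 3 per group, each column matched to its sample by the code in the sample title. The deposited values are raw counts of reads for each gene, with its position, strand and length. The submitters' processing notes list hg19 and, with no roles, STAR 2.6.0, edgeR 3.28.1, HTSeq 0.6.0 and bcl2fastq 2.18.0.12. The annotation and strand setting were not given in those sources. Reads of genes that overlap on opposite strands therefore cannot be assigned with certainty. Gene coordinates are those of the table; promoter sequences are GRCh38.p14 and were not joined to them.

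The counts were fitted with edgeR 4.0.16 in R 4.3.3: filterByExpr (minimum count 10, total 15), TMM factors, and the two-sided quasi-likelihood F-test of DHT+WBM against DHT without covariates. P-values were adjusted by Benjamini-Hochberg over all 13466 tested genes, with a threshold of 0.05. Standard errors are the absolute log2 fold change divided by the square root of F. Libraries of a group differed beyond counting noise (chi-square per degree of freedom 1.74 to 4.34), so none was a copy. Alternatives were other scaling factors, other low-count filters, DESeq2 1.42.0, limma-voom (limma 3.58.1), a replicate block, a threshold of 0.01, and each library left out.

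Values in every library are given for genes past the test with no overlap between groups and a mean of at least 5 CPM, and for ITGB1 and ITGAV. Other members are given by means, ranges or counts, collagen IV genes, COL3A1 and LAMC1 were given in full after their values were seen, and up to 3 genes with the smallest adjusted p are named per pathway list, with exceptions. Some items are not reported here. The members and lists were chosen with earlier results of these data known.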

Additional observations from a re-analysis of the deposited data

How the results depend on the processing

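There were 14 refits, and COL7A1, COL8A2 and COL13A1 were tested in 13 of them. Of the 23 members past the test, 17 kept their call in every refit that tested them, and 6 lost it in at least 1: ITGA2, LAMB1, LAMB2, LAMC1, COL5A1 and COL13A1. The 17 include COL4A3, COL8A2 and COL7A1, which passed the low-count filter only through the group where they were high. Their kept calls are therefore a description only. No called member changed sign. Of the members that missed the threshold, 5 passed in at least 1 refit, among them ITGAV. The laminins called higher numbered 3, and 1 at an adjusted p under 0.01; leaving out 1 library gave 1 to 4. The integrin subunits called lower numbered 1, and 2 with no low-count filter, where ITGA4, with 6 counts in all, joined ITGA6; leaving out 1 library gave 1 to 2. Other counts of called members stayed within 1.5 times, and the medians and summed levels moved by less than the spread between libraries. With the replicate number as a block, 14 members were higher and 10 lower, against 13 and 10 without it. Over all tested genes the block gave 8109 called, against 7837 without it. The labels do not say whether the replicate numbers pair the libraries. Same-numbered libraries of the groups correlated at 0.05, 0.04 and 0.02 in their deviations from the group means. The other combinations ran from -0.09 to 0.05, the highest for DHT replicate 2 with DHT+WBM replicate 3. With 3 libraries per group, values this close to each other cannot decide whether the numbers pair them. Library totals alone moved the median log2 fold change of all tested genes from 0.00 to 0.05. Depth limits members below about 1 CPM, whose standard errors reached 0.36.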
